A study of Mus musculus with 2 samples.

Results

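The genes described here are Sting1, Tbk1, Irf3, Irf7, Ifih1, Rigi, Dhx58, Mavs, Zbp1 and Trex1, which encode the STING adaptor, sensors of foreign or misplaced nucleic acid, and the kinase, transcription factors and nuclease that work with them. They were taken by accession, symbol or synonym from all non-control probes. Sting1 was chosen by its high ratio of deficient over control signal on these arrays, so its values are a description and carry no test. All 10 were on the array, among 27593 genes, with 17 of its 41174 probes, and all 10 belonged to the 14921 genes that passed the filter on dim signals. RNA came from double-positive (DP) thymocytes, the CD4 and CD8 expressing stage of T cell development, of 2 genotypes. The deficient group was Bcl11bF/FCD4Cre/Tcra-/-, where a Cre driven by Cd4 sequences removes floxed parts of Bcl11b, which encodes a zinc finger regulator of T lineage genes, and the control group was TCRa-/-. The Tcra deletion is common to both, and without the receptor's alpha chain thymocytes cannot be positively selected. Each of 2 arrays, named biological replicates 1 and 2, held 1 deficient sample in Cy5 and 1 control sample in Cy3, so dye and genotype cannot be told apart. No Cre and no floxed allele is named for the controls, so Cre itself and loss of Bcl11b cannot be told apart. The labels give neither the number or age of the mice nor the deleted part of Bcl11b.

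STING sits in the endoplasmic reticulum and binds the cyclic dinucleotide that cGAS makes on cytosolic DNA. It then recruits the kinase TBK1, which phosphorylates the transcription factor IRF3 and so turns on type I interferon genes. RIG-I and MDA5, encoded by Rigi and Ifih1, detect RNA and reach the same kinase through MAVS on mitochondria. In T cells, STING is known less for interferon output than for restraining proliferation and promoting cell death.

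Interferon raises several of these sensors through IRF-type promoter elements, so the promoter table was searched for the letters GAAA, any 2 bases (NN) and GAAA again, on both strands, from 250 bases before to 50 after each start. The element was present in 2 of 8 searched promoters of 7 of the genes, against 3.44% of all 32851 promoters in the table. Sting1, Zbp1 and Dhx58 were not searched. Both belonged to RNA sensors, and each is shown 5′ to 3′ on the gene's strand with the matched letters in capitals.
Ifih1: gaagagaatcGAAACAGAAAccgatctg
Rigi: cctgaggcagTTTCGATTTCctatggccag
The sequences are RefSeq's for the GRCm38.p6 build. The Ifih1 window lay on the minus strand of chromosome 2 at 62646206 to 62646233, with the match beginning 33 bases into the transcript. The Rigi window lay on the minus strand of chromosome 4 at 40239804 to 40239833, and its match began at base 3 and ran opposite to the gene. A match in letters is a description and not evidence that a factor binds there.

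After normexp background correction and loess normalisation, intensities are in linear scanner units, and the 153 negative controls had medians of 398.3 to 452.1 across the 4 samples on that scale. Loess works within each array, so these intensities were not scaled between arrays. Comparing samples across arrays, as when groups are said to overlap or not, is therefore descriptive and leaves out the pairing. Ratios are log2 of deficient over control. Of the 17 probes, 13 passed the filter, and those 13 were well above background in both channels of both arrays. All 18 DP markers, among them Cd4, Cd8a and Rag1, passed the filter and were well above background in every sample. On both arrays 6 of them were higher and 10 lower, against 36.4% and 38.5% of all genes. Their means ran from -1.05 for Ets2 to 1.58 for Dntt. Bcl11b read -1.40 and -0.28 by its brighter probe and -1.37 and -2.16 by the other on replicates 1 and 2. Where these probes lie relative to the deletion is not given. Each array gave 1 ratio per probe, so precision is limited by there being 2 arrays.

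Sting1, the adaptor, was measured by 1 probe, at 35860012 to 35860071 on chromosome 18 in the mm8 build of the array files. That probe carries the name 2610307O08Rik on the array and was assigned to Sting1 by synonym alone. Its intensity was 3378 and 2161 in the control samples of replicates 1 and 2 and 20644 and 28640 in the deficient samples. Both deficient samples lay far above both controls, and the controls were themselves well above background. The ratio was 2.61 on replicate 1 and 3.73 on replicate 2, or 6.11-fold and 13.3-fold, with a mean of 3.17 ± 0.31 (SE, limma, n = 2 arrays). Agilent's own processed signals gave 7.04-fold and 17.5-fold. The 2 arrays thus placed Sting1 high to different degrees, with the control sample lower and the deficient sample higher on replicate 2. The gap of 1.12 between arrays was matched or exceeded by 0.824% of the genes tested, whose median gap was 0.13. By mean ratio Sting1 ranked 3 among the 14921 genes, which is the value it was picked for.

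**Figure D1:**
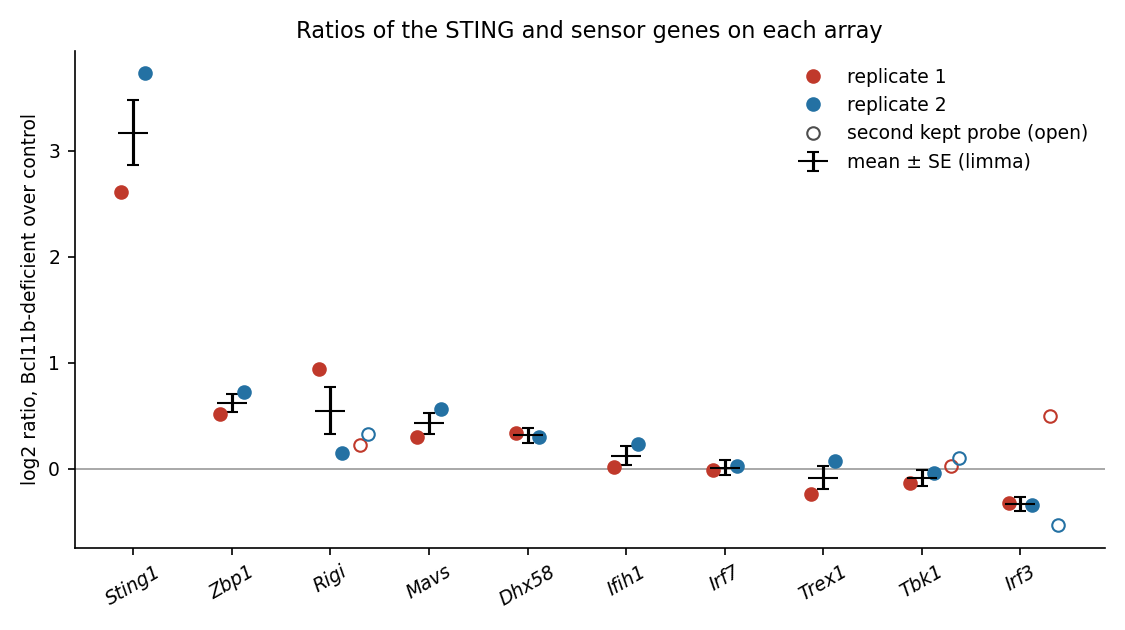
Log2 ratio of Bcl11b-deficient over control cells for the 10 genes on replicates 1 and 2, with the limma mean ± SE of 2 arrays as black marks and other kept probes as open circles. Sting1 stands at 2.61 and 3.73, and the other 9 genes have means between -0.33 and 0.62.

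Of the remaining 9 genes, none passed limma's moderated test after Benjamini-Hochberg adjustment over all genes, where 0% of genes were called. At an unadjusted p under 0.05, 4 of the 9 qualified, against 29.2% of all genes. Zbp1, Mavs and Dhx58 were on the higher side, where 15.1% of all genes qualified, and Irf3 on the lower side, with 14.1%. Separate-channel limma fits the Cy5 and Cy3 signals jointly, allowing for the correlation of both channels of a spot. It called 1 of the 9, Zbp1, against 8.59% of all genes (4.75% higher and 3.83% lower). Without Sting1, which was picked for its high ratio, both arrays were above 0 for 5 of the 9 genes and below 0 for 2. The arrays differed in sign for 2. Counting Sting1, both arrays were above 0 for 6. Over all genes these shares were 36.4%, 38.5% and 25.1%. Sting1, by its choice, exceeded 2-fold on both arrays, as 0.818% of genes did, and 0 of the other 9 reached 1.5-fold on both, a size that 2.47% of genes passed upward and 1.21% downward. Below 0, 0.275% of genes passed 2-fold on both arrays. With median centring in place of loess the counts, with Sting1, became 8 higher and 0 lower. Of all genes, 55.0% were then higher on both arrays and 23.5% lower. The median ratio of the 9 genes was 0.12, beside -0.004 for all genes.

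Zbp1, a sensor of Z-form nucleic acid that can start necroptosis, came next after Sting1. Its probe lay at 172849549 to 172849608 on chromosome 2 (mm8), with intensities of 5880 and 4910 in the control samples and 8428 and 8098 in the deficient samples. The groups did not overlap. The share of all genes whose groups do not overlap was not counted, so here and below this is a description only. The ratios were 0.52 and 0.72 and the mean 0.62 ± 0.09 (limma adjusted p = 0.0837; separate-channel limma adjusted p = 0.0349). Median centring gave 0.85 (limma adjusted p = 0.0451), so Zbp1 was higher under each setting tried but past the threshold in only these 2. Not all of the settings could change its ratio.

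The RNA sensors differed in how well their probes agreed. Rigi, the RIG-I gene, had 4 probes on chromosome 4 (mm8), the brightest at 40398556 to 40398615. That probe read 1323 and 1570 in the control samples and 2543 and 1746 in the deficient samples. Both deficient values exceeded both controls, but the ratio was 0.94 on replicate 1 and 0.15 on replicate 2. The mean was 0.55 ± 0.22 (limma adjusted p = 0.212), so replicate 1 carried most of it. A second kept probe (40392771 to 40392830) read 0.23 and 0.33, so its arrays stood in the opposite order. The other probes of Rigi did not pass the filter. At 40418166 to 40418225 neither group was well above background. At 40394480 to 40394539 only the deficient sample of replicate 1 was, so that probe's ratios of 0.17 and 0.09 are not firm.

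Ifih1, the MDA5 gene, is represented by a dim probe at 62398403 to 62398462 on chromosome 2 (mm8). It read 954 and 698 in the control samples and 964 and 821 in the deficient samples. These ranges overlapped, and the ratios of 0.01 and 0.23 (mean 0.12 ± 0.09, limma adjusted p = 0.415) differed from each other by more than their mean. Agilent's processed signals gave -0.04 and 0.55, of opposite sign, with a mean of 0.25. The other Ifih1 probe was not well above background in any sample.

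Dhx58 encodes LGP2, a relative of RIG-I without its signalling domains that tunes the other RNA sensors. Its kept probe, at 100511047 to 100511106 on chromosome 11 (mm8), read 771 and 738 in the control samples and 975 and 908 in the deficient samples. The groups did not overlap and the arrays read alike, at 0.34 and 0.30, averaging 0.32 ± 0.07 (limma adjusted p = 0.108). Agilent's processed signals gave a mean of 0.64 for this dim probe. The second Dhx58 probe was not well above background in any sample.

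**Figure D2:**
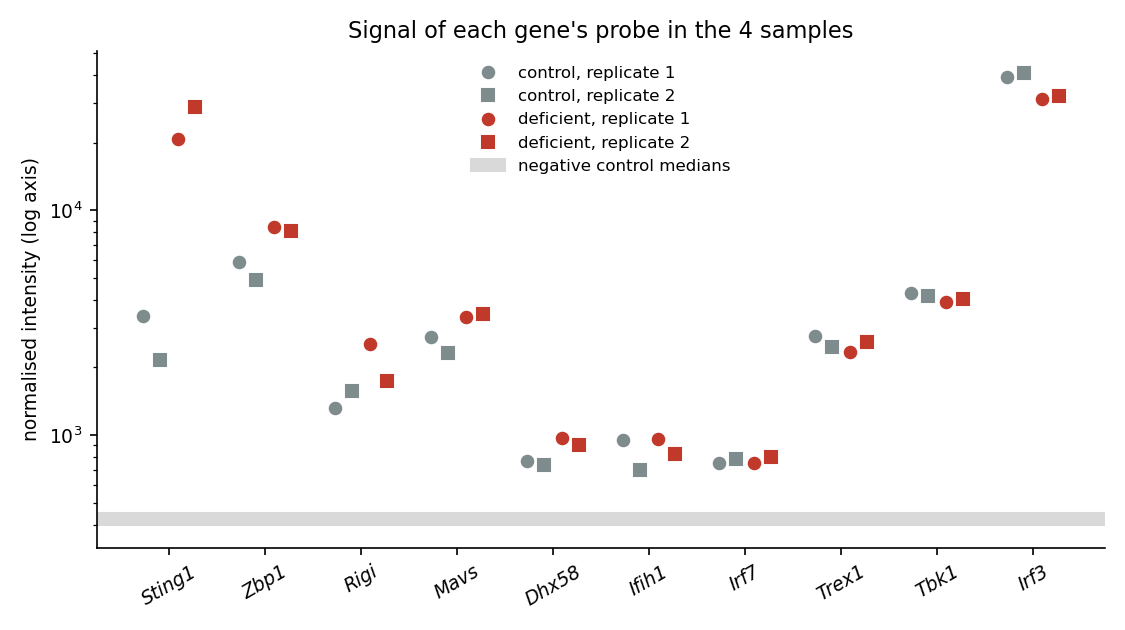
Normalised intensity on a log axis of the probe used for each gene, with control samples in grey and deficient samples in red, circles for replicate 1 and squares for replicate 2, and the range of negative control medians as a band. Sting1 reads 2161 and 3378 in the controls and 20644 and 28640 in the deficient samples, and levels of different probes cannot be set against each other.

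Mavs, the mitochondrial adaptor to which RIG-I and MDA5 signal, had 1 probe at 130939140 to 130939199 on chromosome 2 (mm8). Intensities were 2739 and 2330 in the control samples and 3368 and 3442 in the deficient samples, without overlap. The ratios of 0.30 and 0.56 averaged 0.43 ± 0.10 (limma adjusted p = 0.112; separate-channel limma adjusted p = 0.0592). Mavs therefore stayed above 0 on both arrays without passing either test.

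Downstream of the adaptors come a kinase and transcription factors. Tbk1, the kinase that STING and MAVS share, read 4281 and 4140 in the control samples and 3910 and 4026 in the deficient samples by its brighter probe, which spanned 120954368 to 120954591 on chromosome 10 (mm8). Its ratios were -0.13 and -0.04 (mean -0.09 ± 0.07, limma adjusted p = 0.479), whereas its other kept probe gave 0.03 and 0.10 and median centring turned the mean to 0.11. The sign for Tbk1 is thus not settled, and every value lay close to 0.

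Irf3, the factor that TBK1 phosphorylates, was the gene furthest below 0. Its brighter probe, at 44870345 to 44870404 on chromosome 7 (mm8), read 39073 and 40609 in the control samples and 31183 and 32170 in the deficient samples. The groups did not overlap and the ratios of -0.33 and -0.34 were nearly equal (mean -0.33 ± 0.07, limma adjusted p = 0.104; separate-channel limma adjusted p = 0.0612), but median centring turned the mean to 0.15. The other Irf3 probe (44866049 to 44866108) split by array, with 0.50 on the first and -0.53 on the second. By intensities not scaled between arrays, the control samples differed, at 2165 and 4359, while the deficient samples read 3068 and 3021. The mean over both probes was -0.17.

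Irf7, which amplifies interferon production and is itself induced by interferon, read 755 and 783 in the control samples and 751 and 799 in the deficient samples. Its probe spanned 141116085 to 141116435 on chromosome 7 (mm8). The ratios were -0.01 and 0.03 (mean 0.01 ± 0.07, limma adjusted p = 0.934), and the sign of the mean changed with the processing. Trex1, the exonuclease that clears cytosolic DNA and so keeps cGAS quiet, had 1 probe at 108915729 to 108915788 on chromosome 9 (mm8). It read 2766 and 2459 in the control samples and 2344 and 2590 in the deficient samples, and the groups overlapped. The Trex1 ratios of -0.24 and 0.08 had opposite signs (mean -0.08 ± 0.11, limma adjusted p = 0.639), and the mean was 0.07 with median centring.

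**Figure D3:**
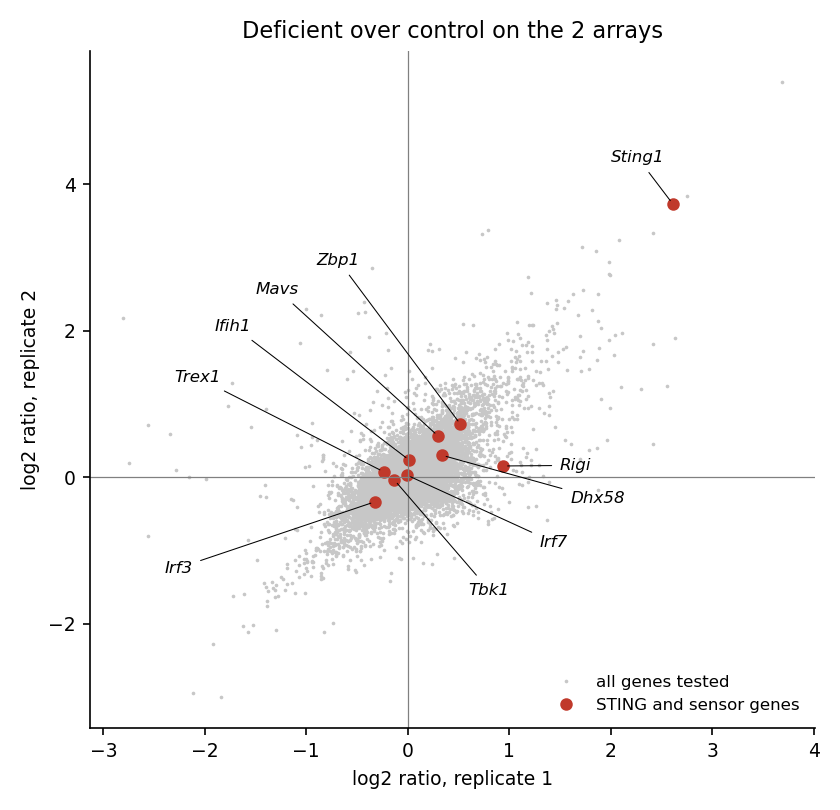
Log2 ratio on replicate 1 (x) against replicate 2 (y) for 14921 genes in grey and the 10 genes in red. Sting1 lies far out at 2.61 and 3.73, Rigi sits to the right of the diagonal at 0.94 and 0.15, and the others lie within the cloud of all genes.

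By mean ratio the genes ran in the order Sting1, Zbp1, Rigi, Mavs, Dhx58, Ifih1, Irf7, Trex1, Tbk1 and Irf3. From Zbp1 down to Dhx58 neighbours in this order differed by less than the sum of their SE values, as did those from Ifih1 to Tbk1, so their order is not settled. On the log2 ratios of the 2 arrays, the tested genes nearest to Sting1 were the transcript 8430408O14, at a distance of 0.18 but with its control well above background on 1 array only, the NK receptor gene Klrb1c at 0.45 and the integrin gene Itgb7 at 0.72. Pde2a, a cyclic nucleotide phosphodiesterase, and Heyl, a Notch-responsive repressor, followed at 0.99 and 1.01, with control signals that were not well above background on either array. With only 2 values per gene this likeness says little beyond a similar ratio on each array.

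Of the 4 protein-coding genes on either side of Sting1 in the reference gene order, looked up after its ratio was known, 4 were tested. Ube2d2a, the nearest of these, had a mean of -0.09 ± 0.08, Dnajc18 -0.16 ± 0.07 and Spata24 0.12 ± 0.08. Cxxc5, a CXXC zinc finger gene beyond Ube2d2a, read 0.54 and 1.05 (mean 0.80 ± 0.15, limma adjusted p = 0.0968; separate-channel limma adjusted p = 0.0447).

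Other genes of the pathway were read in lists by role, without the 10 genes themselves. Limma passed none of them after adjustment. Of those named below, separate-channel limma passed only the ones given with its adjusted p under 0.05. Of 27 tested genes of DNA sensing and STING regulation, 14 lay above 0 on both arrays and 8 below, with a median of 0.08, or 19 above and 4 below with median centring. Ifi203, a PYHIN family gene, had a mean of 1.02 ± 0.21 from 0.65 and 1.38, although members of this family resemble each other closely enough that a probe may read several. Xrcc6, which encodes the Ku70 DNA end-binding protein, read 0.75 and 0.88 (mean 0.81 ± 0.08, limma adjusted p = 0.0720; separate-channel limma adjusted p = 0.0283). Cgas, the enzyme upstream of STING, was chosen for mention after its value was seen. It read 1123 and 999 in the control samples and 1646 and 1702 in the deficient samples, a mean of 0.66 ± 0.09 (limma adjusted p = 0.0817; separate-channel limma adjusted p = 0.0292), or 1.00 with processed signals. At the lower end stood Dnase2a, the lysosomal DNase, at -0.35 ± 0.07, the channel subunit gene Lrrc8c at -0.35 ± 0.07, and Rnf5, a ubiquitin ligase, at -0.21 ± 0.07 but 0.01 with median centring. Median centring gave -0.18 for Lrrc8c, and processed signals gave -0.61 for Dnase2a.

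Among 23 tested genes of RNA sensing and MAVS regulation, 12 were higher on both arrays and 4 lower, with a median of 0.08, or 20 higher and 0 lower with median centring. Rnf125, a ubiquitin ligase that marks RIG-I and MAVS for degradation, read 1.03 and 1.06 (mean 1.04 ± 0.07, limma adjusted p = 0.0653; separate-channel limma adjusted p = 0.0174). The kinase gene Ripk1 had a mean of 0.57 ± 0.08 (adjusted p = 0.0813 by limma and 0.0271 by separate-channel limma). Rnf135, which encodes the RIG-I ligase Riplet, had 0.61 ± 0.16, with its control well above background on just 1 array, and 1.55 with processed signals against 0.39 without background correction. Cyld (-0.24), Riok3 (-0.22) and Tomm70a (-0.20) were lowest, and with median centring they stood at -0.06, 0.14 and 0.23.

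The 22 tested kinases, adaptors and transcription factors of the shared route held 4 that were higher on both arrays and 10 lower, with a median of -0.04, or 11 higher and 5 lower with median centring. Irf1, a transcription factor of interferon responses, read 0.75 and 1.07 (mean 0.91 ± 0.11, limma adjusted p = 0.0771; separate-channel limma adjusted p = 0.0309). Ikbke, the kinase closest to TBK1, had a mean of 0.58 ± 0.08 (adjusted p = 0.0800 by limma and 0.0330 by separate-channel limma) but 1.04 with processed signals. Nfkb1 stood at 0.31 ± 0.09, or 0.48 with median centring. Nfkbia, the inhibitor of NF-kappaB, was lowest at -0.54 ± 0.10, followed by the adaptor gene Traf2 at -0.54 ± 0.10 and Tnfaip3, the A20 gene, at -0.40 ± 0.07. The separate-channel limma adjusted p was 0.0506 for Nfkbia, 0.0473 for Traf2 and 0.0382 for Tnfaip3. The limma adjusted p was 0.0908 for Nfkbia, 0.0944 for Traf2 and 0.0908 for Tnfaip3. Median centring gave -0.03 for Nfkbia, -0.24 for Traf2 and 0.04 for Tnfaip3.

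Endosomal receptors and their helpers numbered 13, with 4 higher on both arrays, 5 lower and a median of 0.03, or 6 higher and 2 lower with median centring. Unc93b1, the chaperone of endosomal Toll-like receptors, read 0.32 and 1.26 (adjusted p = 0.165 by limma and 0.172 by separate-channel limma). Irak1 had a mean of 0.45 ± 0.08 (adjusted p = 0.0880 by limma and 0.0379 by separate-channel limma). Irak4 had a mean of 0.49 ± 0.11, with its control well above background on just 1 array, and moved to 1.90 with processed signals and 0.29 without background correction. Pld3 (-0.51), Cnpy3 (-0.30) and Tlr9 (-0.16) were lowest, at -0.23, -0.09 and -0.02 with median centring. Tlr3 and Tlr8 did not pass the filter.

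Of 24 tested genes of interferon output, 11 lay above 0 on both arrays, 2 below and 11 on either side, with a median of 0.07, or 16 above and 1 below with median centring. Ifnb1, Ifna2 and Ifna4, the interferon genes of the list, did not pass the filter, and neither did Ifit1, Mx1 or Ifi44. Tor3a, an interferon-responsive ATPase gene, had a mean of 0.70 ± 0.12 (adjusted p = 0.0908 by limma and 0.0398 by separate-channel limma). Parp14 had 0.56 ± 0.13 and Rtp4 0.57 ± 0.23, the latter with 0.99 on replicate 1 and 0.15 on replicate 2. Ifnar1, a receptor subunit gene, stood at -0.18 ± 0.07 but 0.07 with median centring, and Mx2 at -0.22 ± 0.10. The deficient signal of Mx2 was well above background on 1 array, and its mean was -0.71 with processed signals and -0.13 without background correction. Over all 109 tested genes of the 5 lists, 45 lay above 0 on both arrays and 29 below. Of these 109, limma called 0, and separate-channel limma called 11, or 10.1%, of which 9 were higher and 2 lower. The shares over all genes are those given above, 8.59% for separate-channel calls.

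**Figure D4:**
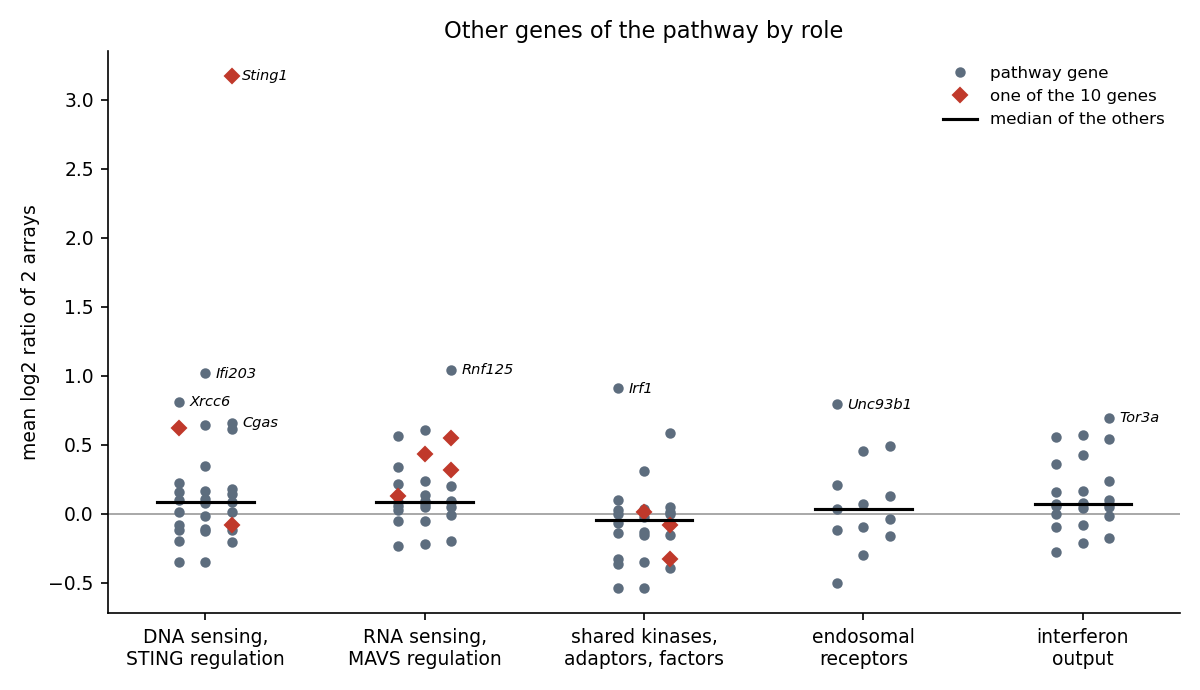
Mean log2 ratio of 2 arrays for tested genes of 5 pathway lists, with the 10 genes as red diamonds, other genes as grey points and the median of those others as a bar. Medians lie between -0.04 and 0.08 after loess, where the median of all genes was -0.004. With median centring they lie between 0.06 and 0.29, where the median of all genes was 0.13. Sting1 at 3.17 stands apart from each list.

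Sting1 is also expressed by myeloid and other cells, so markers of cells a DP preparation may hold were read beside it. In bulk RNA, fewer cells of a type and less RNA per cell cannot be told apart. Of 14 tested macrophage or monocyte markers, 9 lay above 0 on both arrays and 3 below, and their summed intensity was 98660 and 41820 in the control samples and 115500 and 110700 in the deficient samples. Lyz2 made up most of that sum. Adgre1 read 0.73 and 1.12, Csf1r -0.01 and 0.95, and Mertk did not pass the filter. Of 10 tested dendritic cell markers, 4 were higher and 5 lower, with sums of 180300 and 170700 in the control samples and 122000 and 64180 in the deficient samples, mostly from Ccr9, which thymocytes also express. Itgax, Flt3, Xcr1, Clec9a, Cd209a and Siglech did not pass the filter.

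NK markers were higher on both arrays for 6 of 8 tested genes and lower for 1, with sums of 16490 and 15670 in the control samples and 31370 and 31380 in the deficient samples, while Ncr1 and Gzmb did not pass the filter. Stromal or endothelial markers were higher for 7 of 9 and lower for 2, with sums of 15420 and 7628 in the control samples and 23290 and 16330 in the deficient samples. Control signals were well above background on both arrays for 7 of the 8 NK and 7 of the 9 stromal or endothelial markers. For macrophage or monocyte markers this held for 11 of 14. The remaining markers of these lists passed the filter only through the deficient samples, so the filter favoured higher readings among them. For B cells 0 of 8 were higher and 5 lower, with sums of 28410 and 17740 against 19070 and 15010. The 4 tested erythroid markers summed to 309000 and 56420 in the control samples and 238700 and 333600 in the deficient samples, so the control sample of replicate 2 stood apart. The part of these cells in the ratios of Sting1 or of the sensors was not tested.

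**Figure D5:**
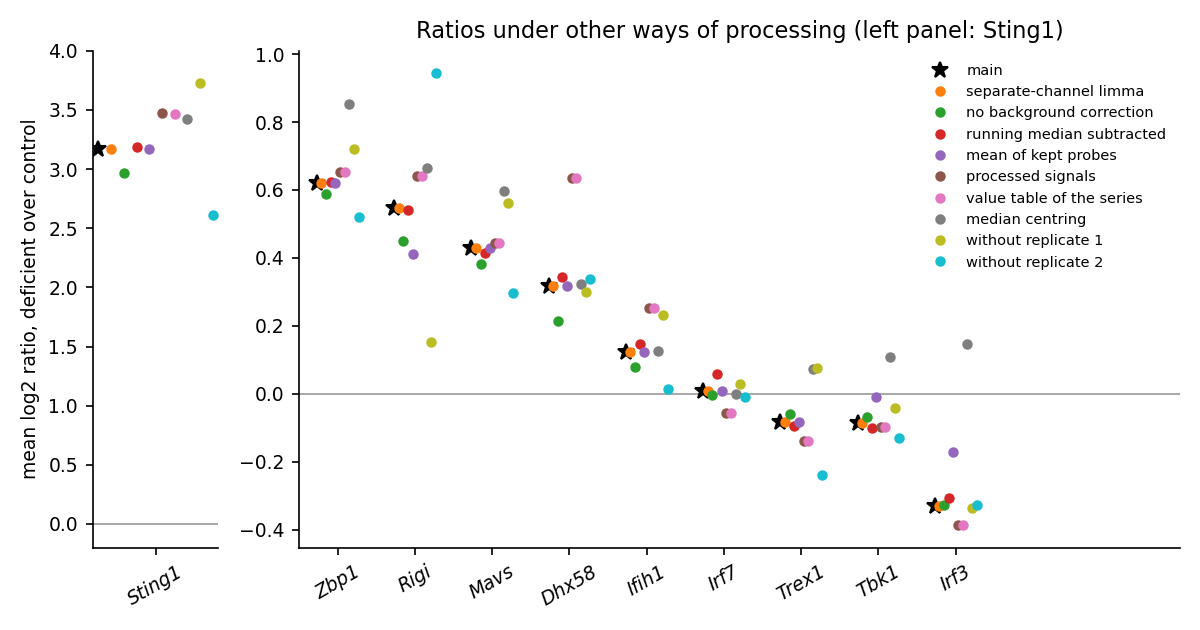
Mean log2 ratio of each gene under the main processing (star) and 9 alternatives (points), with Sting1 in its own panel. Sting1 stays between 2.61 and 3.73 and Zbp1 between 0.52 and 0.85, whereas Irf3 moves from -0.33 to 0.15 with median centring and Rigi spans 0.15 to 0.94 with single arrays.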

How the data were processed

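The authors read both scans with Agilent Feature Extraction 9.5.3.1, per the file headers. The deposited mean spot and local background signals are scanner intensity without correction. The deposited processed intensity was corrected for background and trend and normalised between dyes, per the file headers. The deposited log ratio is log10 of Cy5 over Cy3, and the series value table equals it to within 0.005 at every spot.

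Here signals were corrected by normexp (offset 50) and normalised by loess with limma 3.58.1 (statmod 1.5.0, R 4.3.3), with controls and outlier spots (108 and 116) at weight 0. Probes well above background in 1 channel on both arrays were kept (21540), named by accession, symbol or synonym, and each gene took its brightest kept probe. The mean of 2 arrays was tested against 0 by limma's moderated test, with 1 residual degree of freedom, and p values were adjusted by Benjamini-Hochberg at 0.05 over all 14921 genes. Separate-channel limma used Aquantile normalisation and an intraspot correlation of 0.38. The test was run on simulated data first.

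The genes and lists were chosen with earlier results of these data known. Named from each list were the 3 highest and 3 lowest genes of like sign on both arrays, and the 5 genes nearest Sting1. No mm8 annotation was used here, so exons and UTRs are not assigned.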

Additional observations from a re-analysis of the deposited data

How the results depend on the processing

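Sting1 stayed between 2.61 and 3.73 under all 12 alternatives, and Ifih1, Rigi, Dhx58, Mavs and Zbp1 stayed above 0 under all 12. Not all of the 12 could change these ratios. Separate-channel limma and the settings that changed only the filter or tested each probe on its own left every ratio as it was. The value table nearly repeats the processed signals, and genes higher on both arrays are above 0 on single arrays by definition. Median centring, which raised the median of all genes by 0.10 and 0.16, turned Tbk1 to 0.11, Irf3 to 0.15 and Trex1 to 0.074, left 0 of the genes lower on both arrays, put 72 pathway genes higher and 12 lower, and called 1 of the 9 genes and 981 of all genes. Irf7 turned to -0.056 with processed signals and with the value table, and to -0.0038 without background correction. With processed signals, and with the value table, 5 of the genes were higher on both arrays, Sting1 counted. The share of all genes was not counted for those settings. Separate-channel limma called 1 of the 9 genes and 1281 of all, and the limma fit called 132 genes on processed signals and 28 on the series' own values, against 0 with limma on loess values. The mean of kept probes left 0 genes lower on both arrays. With single arrays, without test, the genes higher numbered 6 to 8 with Sting1 counted, and those lower 2 to 4. Pathway genes higher then numbered 56 to 69 and lower 40 to 53. The share of all genes on each side of 0 on a single array was not counted, so these counts are a description. The median ratio of all genes was -0.017 on replicate 1 and 0.005 on replicate 2. Over its alternatives the limma or separate-channel adjusted p ran from 0.0349 to 0.120 for Zbp1, from 0.0612 to 0.478 for Irf3 and from 0.112 to 0.274 for Rigi. The limma test on within-array ratios is itself the paired comparison of the genotypes, and separate-channel limma uses the pairing through its intraspot correlation. With 2 arrays of 1 dye orientation, dye bias cannot be told apart from genotype and ratios of dim probes depend on the background, with Dhx58 between 0.21 and 0.64.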
